A study of Bos taurus with 6 samples.

Results

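Autophagy delivers cell contents to the lysosome inside a double membrane, the autophagosome. A kinase complex built on ULK1 or ULK2 starts the process, a lipid kinase complex containing beclin 1 marks the membrane, and ubiquitin-like conjugation reactions attach proteins of the ATG8 family to it. Cargo receptors then tie the load to the ATG8 proteins, and mitophagy receptors do so for mitochondria. In skeletal muscle the pathway is known for removing damaged mitochondria and worn proteins, and for protein loss during fasting. The 45 autophagy genes described here were the rows of a list of 21972 bovine genes whose name begins with ATG and a digit, MAP1LC3, GABARAP or WIPI, or is ULK1, ULK2, BECN1, SQSTM1, NBR1, PIK3C3, PIK3R4, UVRAG, RB1CC1, AMBRA1, BNIP3, BNIP3L, FUNDC1, PINK1, PARK2, OPTN, TFEB, VMP1 or STX17. The rule reads gene names and no measured value. ATG10 and WIPI1 were found through a second name column, so that 2 of the 45 were matched in that way, and all 45 matched a RefSeq gene name.

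The tissue was longissimus dorsi, the long muscle of the back, from 3 Wagyu (Japanese black) cattle and 3 Chinese Red Steppes cattle, with 1 poly(A) RNA library per animal. Wagyu beef is known for heavy marbling, and the comparison asks which transcripts differ between the muscles of the breeds. All 6 animals were males of 28 months on a similar diet of corn and hay. The animals of each breed shared 1 sire and 1 farm, so breed, sire and farm cannot be told apart, and p-values measure only the spread between these animals. The Wagyu libraries are called WC616, WC719 and WC921 and the Chinese Red Steppes libraries RC4, RC5 and RC6, and values are given in that order. Levels are fragments scaled to transcript length and sequencing depth (FPKM), which allow levels of different genes to be set side by side. Fold changes are log2 differences of FPKM + 1, Wagyu minus Chinese Red Steppes.

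Between 15438095 and 16197141 reads per library had been counted to genes, so depth differed little. The skeletal muscle actin ACTA1 was at 31588 to 36258 FPKM in Wagyu and at 41181 to 45751 FPKM in Chinese Red Steppes, so it was lower in every Wagyu library (log2 fold change -0.38, adjusted p = 0.455 by limma). DES, another of the 8 skeletal muscle genes listed, was higher in every Wagyu library. It was at 6932 to 8576 FPKM in Wagyu and at 5200 to 6915 FPKM in Chinese Red Steppes (log2 fold change 0.37, adjusted p = 0.417 by limma). RC6 stood apart from the other libraries in its fibre-type genes. The summed level of 9 slow-fibre genes was 81287 FPKM in RC6 and 26123 to 49238 FPKM in the other 5 libraries, and that of 9 fast-fibre genes was 27050 FPKM in RC6 and 43344 to 58897 FPKM elsewhere. The muscle was measured in bulk, so fewer cells of a type and less RNA per cell cannot be told apart. Results on autophagy genes that rest most on RC6 are therefore given with and without it.

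Most of the autophagy genes were transcribed in every library. Of the 45 genes, 41 had a mean of at least 1 FPKM over the 6 libraries and were tested. The exceptions were ATG2B, ATG4C, ATG9B and MAP1LC3C. The mean levels spanned PINK1, the kinase that flags damaged mitochondria, at 459 FPKM, down to UVRAG, a beclin 1 partner, at 1.21 FPKM among the genes tested. The next highest means were those of the cargo receptor SQSTM1 (294 FPKM), the ATG8 protein GABARAP (199 FPKM), the cargo receptor OPTN (190 FPKM) and the mitophagy receptor BNIP3 (178 FPKM). These 5 genes act on cargo, on mitochondria or as the membrane anchor for both. The other cargo and mitophagy genes were far lower, with means of 18.0 FPKM for NBR1, 8.34 for FUNDC1, 4.29 for PARK2 and 2.81 for BNIP3L. The 7 genes of the conjugation reactions stayed at or below 15.7 FPKM in every library. The median of the 41 means was 12.8 FPKM, beside 7.11 FPKM over all 9990 genes tested.

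**Figure D1:**
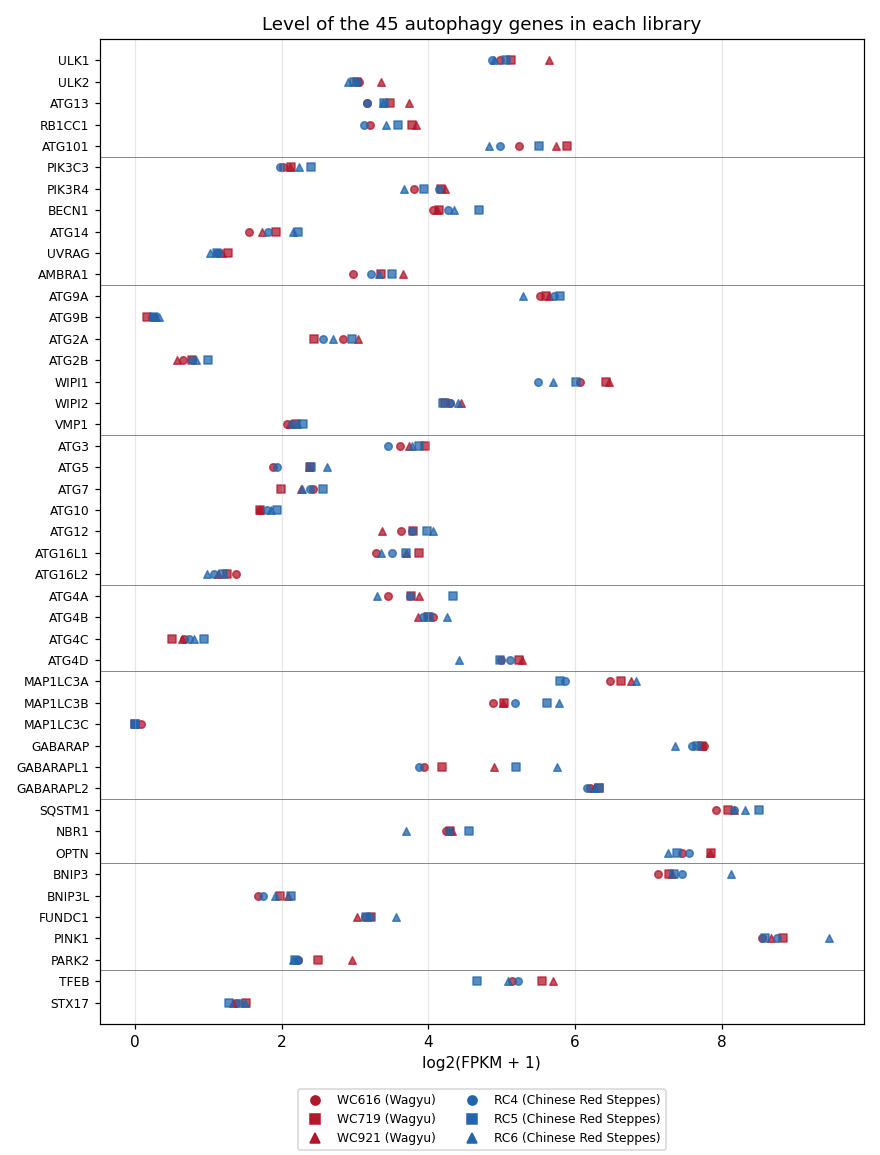
Level of each of the 45 autophagy genes in the 6 libraries, as log2(FPKM + 1), with 1 point per library and lines between the roles. PINK1, SQSTM1, GABARAP, OPTN and BNIP3 lie farthest to the right, the genes of the conjugation reactions lie at or below 15.7 FPKM, and MAP1LC3C was recovered as 1 read in 1 library and none in the other 5.

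Levels varied less between libraries for these genes than for genes at large. The median coefficient of variation over the 6 libraries was 17.4% for the 41 genes and 21.6% for all genes tested. The highest library exceeded the lowest by more than 2 times in 6 of the 41 genes (14.6%), compared with 38.4% of all genes tested. Those genes were ATG101, ATG4A, MAP1LC3A, GABARAPL1, BNIP3 and TFEB. GABARAPL1 had the widest range, 3.88 times from RC4 to RC6, whereas the coefficient of variation was 4.62% for GABARAPL2. The higher levels of the autophagy genes and their smaller spread are given side by side, and no test was made between them.

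No autophagy gene differed between the breeds by the limma test at an adjusted p of 0.05. The Benjamini-Hochberg adjusted p values, taken over all 9990 genes tested, ran from 0.268 for WIPI1 to 0.995 for STX17. Of all genes tested, 2 of 9990 genes (0.02%) passed, 0.01% in each direction. At an unadjusted p below 0.05, WIPI1 and TFEB were higher in Wagyu and MAP1LC3B was lower, which is 3 of 41 genes (7.32%) beside 14.5% of all genes tested. By direction the background shares were 8.64% higher and 5.87% lower. With reads recovered from the FPKM values, edgeR called 0 of 43 autophagy genes (background 0.0685%) and DESeq2 0 of the 43 to which it gave an adjusted p (background 2.01%). At an unadjusted p below 0.05 edgeR counted WIPI1 as higher and MAP1LC3B, BECN1 and ATG14 as lower, and DESeq2 counted WIPI1 as higher and MAP1LC3B as lower. The background at that level was 6.99% higher, 7.09% lower and 14.1% in all by edgeR, and 6.22% higher, 5.64% lower and 11.9% in all by DESeq2.

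The directions were nearly balanced. Of the 41 genes, 22 lay above 0 and 19 below it, beside 5362 above and 4628 below of all 9990 genes tested. Their median log2 fold change was 0.01, compared with 0.03 for all genes tested. The individual values ran from -0.60 for GABARAPL1 to 0.58 for WIPI1. The 3 libraries of one breed all lay above or below those of the other in 8 of the 41 genes (19.5%), beside 20.6% of all genes tested. Of these, WIPI1, GABARAP and PARK2 were higher in Wagyu, against a background of 11.4% of genes. The other 5, BECN1, ATG10, MAP1LC3B, SQSTM1 and BNIP3, were lower in Wagyu, against a background of 9.16%.

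**Figure D2:**
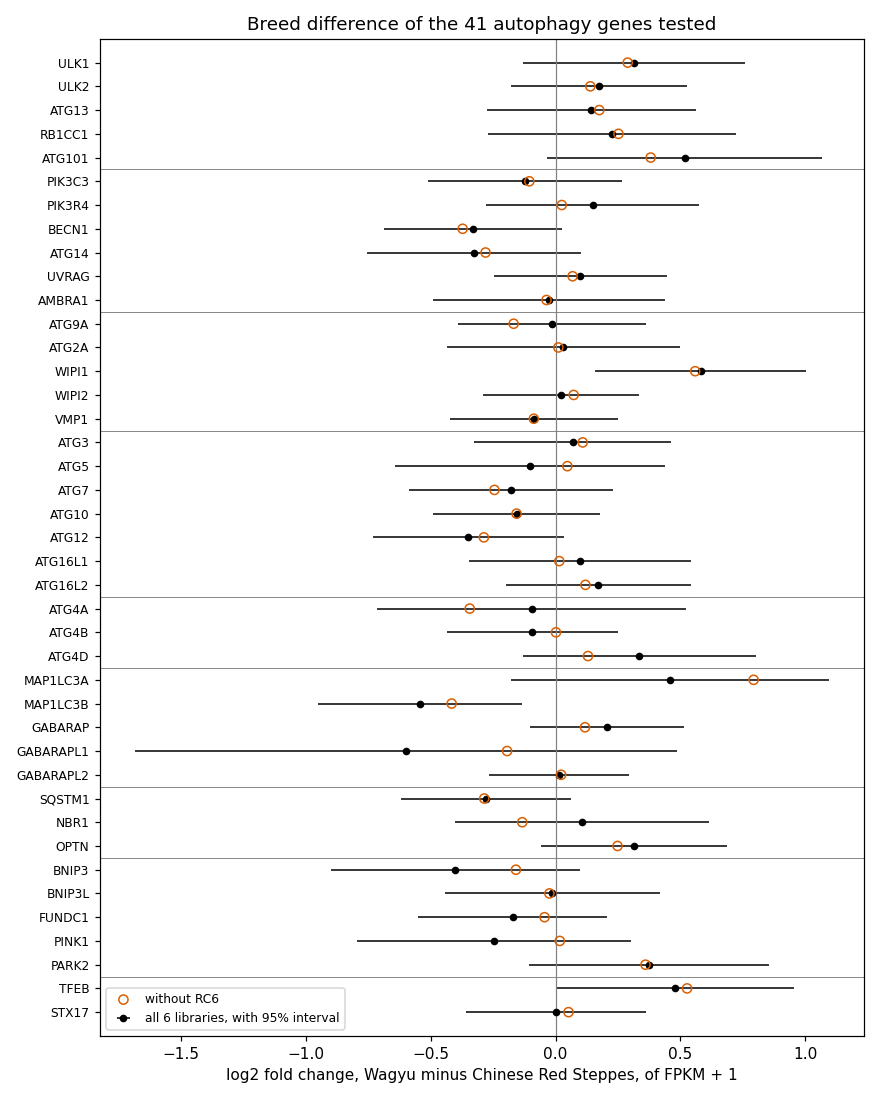
Log2 fold change of each of the 41 tested autophagy genes, Wagyu minus Chinese Red Steppes on the FPKM + 1 scale, with 95% confidence intervals from limma (filled points, all 6 libraries) and the estimate without RC6 (open circles). The estimates from all libraries lie between -0.60 and 0.58, and the intervals of WIPI1, TFEB and MAP1LC3B exclude 0 before adjustment while no adjusted p was below 0.268.

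Among the initiation kinase complex, all 5 genes had estimates above 0, beside 5362 of 9990 over all genes tested, and none passed the test. ATG101, a stabilising subunit of the complex, was at 36.6, 58.5 and 52.4 FPKM in Wagyu and at 30.4, 44.6 and 27.5 FPKM in Chinese Red Steppes. RC5 reached into the Wagyu range, so the breeds overlapped, and the log2 fold change was 0.52 with a standard error of 0.24 (95% interval -0.03 to 1.07, adjusted p = 0.366 by limma). The estimate for ATG101 was 0.38 without RC6, its lowest library (adjusted p = 0.563 by limma). ULK1, the initiating kinase, averaged 38.0 ± 9.92 FPKM in Wagyu and 29.8 ± 2.25 FPKM in the other breed (SD over 3 animals). Its paralog ULK2 lay lower, at 6.48 to 9.21 FPKM in the 6 libraries. The scaffold RB1CC1 had a log2 fold change of 0.23 and ATG13, which links the kinase to the scaffold, one of 0.14. The median of the 5 estimates was 0.23, beside 0.03 over all genes tested.

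In the lipid kinase complex, which makes the phosphatidylinositol 3-phosphate that recruits later factors, BECN1 was the gene whose breeds separated. BECN1 encodes beclin 1, the regulatory subunit of the complex. It was at 15.7, 16.7 and 16.4 FPKM in Wagyu and at 18.2, 24.9 and 19.5 FPKM in Chinese Red Steppes. The Wagyu libraries sat close together below all Chinese Red Steppes libraries, and the log2 fold change was -0.33 with a standard error of 0.15 (95% interval -0.69 to 0.02, adjusted p = 0.370 by limma). ATG14, the subunit that directs the kinase to autophagy, had the same limma estimate of -0.33 at 1.94 to 3.66 FPKM, with overlapping breeds. On the recovered reads ATG14 was at -0.49 by edgeR and -0.48 by DESeq2, and BECN1 at -0.39 by both, none past the threshold. The catalytic subunit PIK3C3 averaged 3.24 ± 0.172 and 3.64 ± 0.688 FPKM and its partner PIK3R4 averaged 15.9 ± 2.57 and 14.3 ± 2.50 FPKM (Wagyu first, SD over 3 animals). The log2 fold change of PIK3R4 was 0.15 over all libraries and 0.02 without RC6. AMBRA1, which regulates beclin 1, had an estimate of -0.03. Levels thus differed several-fold among subunits of one complex, within both breeds.

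WIPI1 carried the lowest limma adjusted p of the 41 genes tested, while MAP1LC3B had the lowest by edgeR and DESeq2. The WIPI proteins bind phosphatidylinositol 3-phosphate on the forming membrane. WIPI1 was at 65.8, 84.7 and 87.6 FPKM in Wagyu and at 44.3, 63.7 and 50.8 FPKM in Chinese Red Steppes. The highest Chinese Red Steppes library, RC5, lay just under the lowest Wagyu library. The means were 79.4 ± 11.8 and 52.9 ± 9.91 FPKM (SD, n = 3 each), and the log2 fold change was 0.58 with a standard error of 0.18 (lower bound of the 95% interval 0.16, adjusted p = 0.268 by limma). The adjusted p was 0.268 by edgeR and 0.178 by DESeq2, and it ran from 0.178 to 0.595 over the alternatives, with log2 fold changes from 0.46 to 0.72. Without RC6 the log2 fold change was 0.56. WIPI2, which recruits ATG16L1, was at 17.4 to 20.8 FPKM with a log2 fold change of 0.02 (95% interval -0.29 to 0.33).

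Of the genes that supply membrane, ATG9A, a scramblase carried on the vesicles that seed the autophagosome, was at 44.8, 47.4 and 48.8 FPKM in Wagyu and at 51.3, 54.6 and 38.2 FPKM in Chinese Red Steppes. RC6 was the lowest of all libraries and RC4 and RC5 the highest, and the log2 fold change was -0.01 over all libraries and -0.17 without RC6. ATG2A, which transfers lipid to the growing membrane, lay between 4.44 and 7.24 FPKM and VMP1, an endoplasmic reticulum scramblase, between 3.20 and 3.89 FPKM. The paralogs ATG9B (5 to 10 reads per library) and ATG2B (52 to 103 reads) stayed under 1 FPKM in every library. ATG2B averaged 0.594 FPKM in Wagyu and 0.830 FPKM in the other breed, a log2 fold change of -0.52 by edgeR (adjusted p = 0.391) and -0.51 by DESeq2 (adjusted p = 0.510).

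The genes of the conjugation reactions were among the lower ones. ATG7 activates ATG12 and the ATG8 proteins, ATG3 and ATG10 transfer them, and ATG5, ATG12 and ATG16L1 form the complex that directs ATG8 lipidation. ATG12 was at 11.3, 12.8 and 9.29 FPKM in Wagyu and at 12.7, 14.8 and 15.7 FPKM in Chinese Red Steppes. Only WC719 entered the Chinese Red Steppes range, and the log2 fold change was -0.35 with a standard error of 0.16 (95% interval -0.73 to 0.03, adjusted p = 0.376 by limma). ATG10 was at 2.27, 2.26 and 2.26 FPKM in Wagyu and at 2.47, 2.82 and 2.63 FPKM in Chinese Red Steppes. The breeds did not overlap, but the values rest on 70 to 86 reads per library, and the log2 fold change of -0.16 had a 95% interval of -0.49 to 0.18. ATG5 (33 to 61 reads), ATG7, ATG3, ATG16L1 and ATG16L2 (28 to 47 reads) had estimates between -0.18 and 0.17.

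The ATG4 proteases trim newly made ATG8 proteins and release them from membranes. ATG4D was the highest of them at 20.4 to 37.7 FPKM, with RC6 at the lower end, and its log2 fold change was 0.34 over all libraries and 0.13 without RC6. ATG4B lay between 13.5 and 18.1 FPKM and ATG4A between 8.84 and 19.2 FPKM. ATG4A was lowest in RC6 and highest in RC5, and its log2 fold change was -0.10 over all libraries and -0.34 without RC6. ATG4C was below the filter and was picked out after its values were seen. Its levels were 0.596, 0.414 and 0.561 FPKM in Wagyu and 0.662, 0.928 and 0.740 FPKM in Chinese Red Steppes, from 17 to 37 reads, with no overlap of the breeds.

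The ATG8 family had the highest median coefficient of variation among the roles, 27.0%, with the mitophagy genes close behind at 26.9%. The proteins of the ATG8 family are anchored in the membrane and bind cargo receptors. The LC3 and GABARAP proteins form its branches. GABARAP made up 35.5% to 52.0% of the summed family level, and the sum itself lay between 368 FPKM in RC4 and 459 FPKM in RC6. GABARAP was at 216, 212 and 211 FPKM in Wagyu and at 191, 201 and 163 FPKM in Chinese Red Steppes. All Wagyu libraries were higher and lay close together, and the log2 fold change was 0.21 with a standard error of 0.13 (95% interval -0.10 to 0.51, adjusted p = 0.504 by limma). Without RC6 the log2 fold change of GABARAP was 0.12. GABARAPL2 was at 72.7, 79.5 and 75.2 FPKM in Wagyu and at 70.5, 78.9 and 76.1 FPKM in Chinese Red Steppes. Its levels overlapped throughout, and the difference was 0.01 on the log2 scale (95% interval -0.27 to 0.29).

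MAP1LC3B and MAP1LC3A, the genes of the LC3 branch that were detected well, had estimates of opposite sign. MAP1LC3B was at 28.6, 31.7 and 31.5 FPKM in Wagyu and at 35.3, 47.9 and 54.0 FPKM in Chinese Red Steppes. Every Wagyu library was below every Chinese Red Steppes library, and the log2 fold change was -0.54 with a standard error of 0.18 (95% interval -0.95 to -0.14, adjusted p = 0.273 by limma). The adjusted p was 0.229 by edgeR and 0.117 by DESeq2, and between 0.117 and 0.557 over all alternatives, where the log2 fold change ran from -0.72 to -0.42. Without RC6 the log2 fold change of MAP1LC3B was -0.42 (adjusted p = 0.379 by limma). MAP1LC3A was at 88.4, 97.7 and 107 FPKM in Wagyu and at 57.1, 54.6 and 113 FPKM in Chinese Red Steppes. RC4 and RC5 lay below all Wagyu libraries and RC6 above them, so the breeds overlapped through that 1 library. Over all libraries the log2 fold change of MAP1LC3A was 0.46 with a standard error of 0.27 (95% interval -0.18 to 1.09, adjusted p = 0.477 by limma).

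RC6 decided the call for MAP1LC3A under 1 of the tools. Without RC6 the log2 fold change was 0.79 by limma (adjusted p = 0.140) and 0.77 with a standard error of 0.18 by DESeq2 (adjusted p = 0.00314), and the adjusted p by edgeR was 0.145. The adjusted p of MAP1LC3A ran from 0.00314 to 0.756 over all alternatives. DESeq2 without RC6 called 2.29% of the genes it tested (1.52% as higher in Wagyu), and MAP1LC3A was the 1 autophagy gene among them. By edgeR without RC6, 0.117% of all genes and 0 of 43 autophagy genes were called. The choice to leave RC6 out of the count tests was made after the data were seen.

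GABARAPL1 had the most negative limma estimate of the 41 genes tested and also the widest limma standard error. It was at 14.4, 17.3 and 28.7 FPKM in Wagyu and at 13.7, 35.8 and 53.0 FPKM in Chinese Red Steppes. RC4 was the lowest of all libraries and RC6 the highest, so that both extremes belonged to one breed. The log2 fold change was -0.60 with a standard error of 0.47 (95% interval -1.69 to 0.48, adjusted p = 0.582 by limma), and -0.19 without RC6. MAP1LC3C was recovered as 1 read in WC616 and 0 reads in the other 5 libraries. As only 1 library was above 0, that read number is the smallest its value allows. The limit that a count of 0 allows, 3 reads, corresponds to at most 0.171 FPKM at the gene length recovered with it. Such limits and the read numbers given here cover counting error only.

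**Figure D3:**
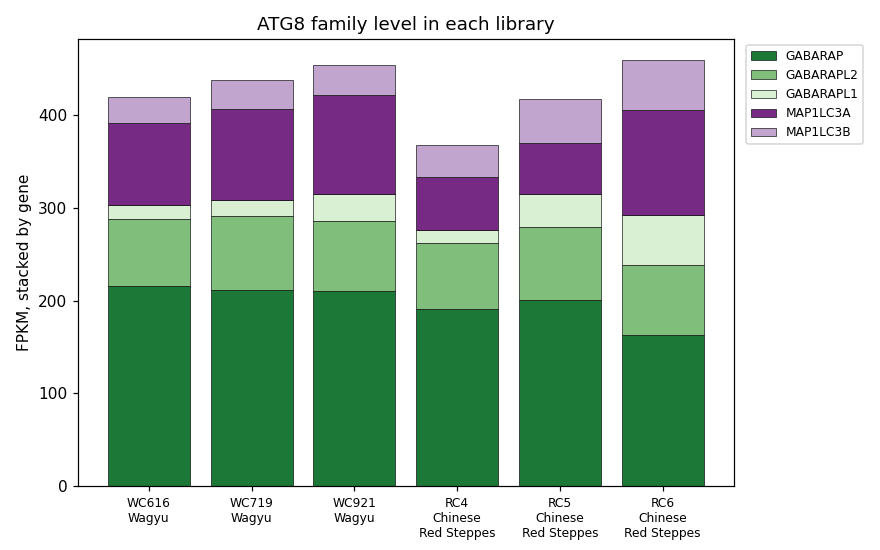
Level of the 5 well-detected ATG8 family genes in each library, in FPKM, stacked so that each bar ends at their sum. GABARAP is the largest segment throughout, the MAP1LC3B segment spans 28.6 to 31.7 FPKM in Wagyu and 35.3 to 54.0 FPKM in Chinese Red Steppes, and RC6 has the largest MAP1LC3A and GABARAPL1 segments.

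Within a library, the ratio of one paralog to its partner does not depend on how the library was scaled. In all, 9 such ratios were compared by a two-sided exact permutation test, in which 3 animals against 3 cannot give a p below 0.1. The MAP1LC3A to MAP1LC3B ratio of FPKM was 3.09, 3.08 and 3.41 in Wagyu and 1.62, 1.14 and 2.10 in Chinese Red Steppes. It was the only one of the 9 ratios whose breeds did not overlap, with RC6 nearest to Wagyu. Its means were 3.19 ± 0.186 and 1.62 ± 0.479 (SD), a log2 difference of 1.02 (exact permutation p = 0.1, adjusted p = 0.514 over the 9 ratios, n = 3 each). The WIPI1 to WIPI2 ratio averaged 4.18 ± 0.633 in Wagyu and 2.85 ± 0.708 in the other breed (SD over 3 animals, exact permutation p = 0.2). The GABARAPL1 to GABARAP ratio ran from 0.0669 in WC616 to 0.326 in RC6 (exact permutation p = 0.3). The exact p of the other 6 ratios lay between 0.3 and 1.

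The cargo receptors bind ubiquitin on their load and ATG8 proteins on the membrane. SQSTM1, also called p62, was at 241, 270 and 285 FPKM in Wagyu and at 287, 364 and 318 FPKM in Chinese Red Steppes. The breeds did not overlap, but WC921 and RC4 were nearly level. The log2 fold change was -0.28 with a standard error of 0.15 (95% interval -0.62 to 0.06, adjusted p = 0.420 by limma). OPTN, a receptor for ubiquitin-tagged mitochondria among other loads, had an estimate of the opposite sign. It was at 175, 230 and 228 FPKM in Wagyu and at 187, 166 and 153 FPKM in Chinese Red Steppes. WC616 fell inside the Chinese Red Steppes range, and the log2 fold change was 0.31 with a standard error of 0.16 (95% interval -0.06 to 0.69, adjusted p = 0.405 by limma). NBR1, a receptor related to SQSTM1, lay between 17.8 and 22.5 FPKM in 5 libraries and at 11.9 FPKM in RC6. Its log2 fold change was 0.11 over all libraries and -0.13 without RC6.

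The mitophagy genes divide into the PINK1 and parkin route, which tags mitochondria with ubiquitin, and receptors that sit in the outer mitochondrial membrane. PINK1 was at 374, 456 and 406 FPKM in Wagyu and at 429, 384 and 703 FPKM in Chinese Red Steppes, from 17534 to 32057 reads. RC4 and RC5 fell within the Wagyu range and RC6 far above it. The log2 fold change of PINK1 was -0.25 with a standard error of 0.24 over all libraries and 0.02 without RC6. PARK2, which encodes the ubiquitin ligase parkin, was at 3.68, 4.63 and 6.79 FPKM in Wagyu and at 3.67, 3.52 and 3.47 FPKM in Chinese Red Steppes. WC616 and RC4 were nearly level, so the separation rests on WC719 and WC921, and the log2 fold change was 0.37 with a standard error of 0.21 (95% interval -0.11 to 0.85, adjusted p = 0.445 by limma).

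The receptor BNIP3 was at 139, 154 and 160 FPKM in Wagyu and at 174, 163 and 279 FPKM in Chinese Red Steppes. RC6 was again far above, and RC5 lay close to WC921. The log2 fold change of BNIP3 was -0.40 with a standard error of 0.21 (95% interval -0.90 to 0.10, adjusted p = 0.426 by limma), and -0.16 without RC6. Its paralog BNIP3L was at 2.19, 2.95 and 3.25 FPKM in Wagyu and at 2.35, 3.38 and 2.75 FPKM in Chinese Red Steppes, so that the BNIP3 to BNIP3L ratio lay between 48.0 and 102 in the 6 libraries. FUNDC1, a further receptor of the outer membrane, was at 7.78, 8.32 and 7.16 FPKM in Wagyu and at 8.18, 7.86 and 10.8 FPKM in Chinese Red Steppes. Both BNIP3L and FUNDC1 had overlapping breeds, and the log2 fold change of FUNDC1 was -0.17 over all libraries and -0.04 without RC6.

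TFEB, the transcription factor that raises autophagy and lysosome genes, was at 34.4, 46.0 and 51.2 FPKM in Wagyu and at 36.2, 24.4 and 33.0 FPKM in Chinese Red Steppes. WC616 lay between RC6 and RC4, so the breeds overlapped. The log2 fold change was 0.48 with a standard error of 0.21 (95% interval 0.00 to 0.96, adjusted p = 0.344 by limma) and 0.53 without RC6, and the adjusted p ran from 0.246 to 0.678 over the alternatives. STX17, which mediates fusion of the autophagosome with the lysosome, was at 1.44 to 1.87 FPKM with a log2 fold change of 0.00 (95% interval -0.36 to 0.36).

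**Figure D4:**
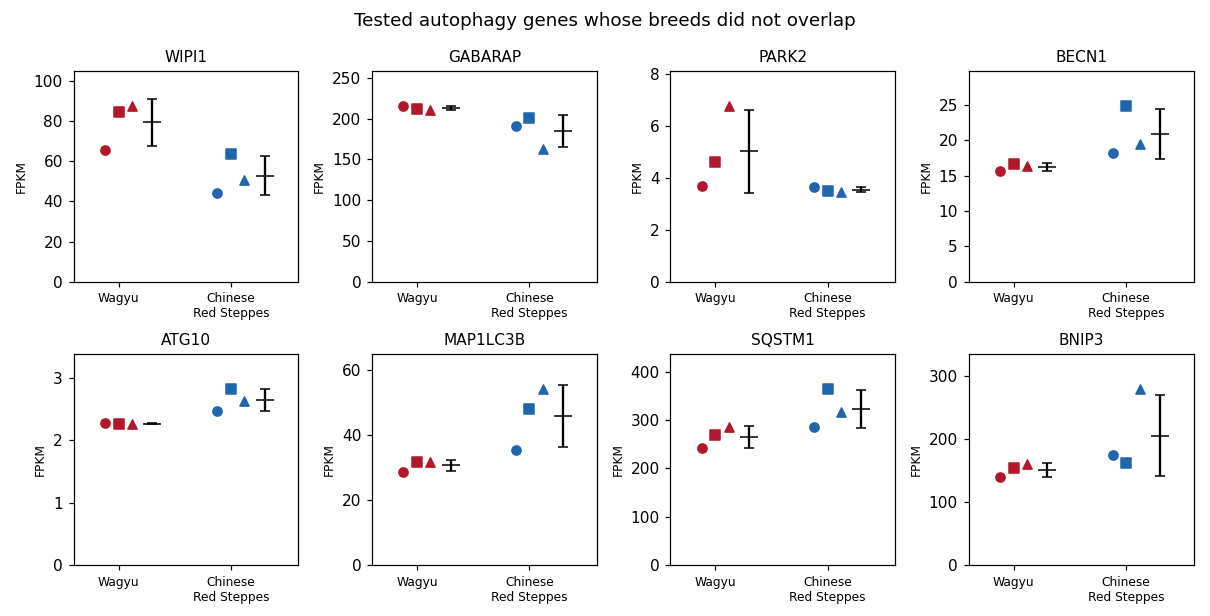
Level in each library, in FPKM on a separate axis per gene, with black marks for the mean and SD of each breed (n = 3), of the 8 tested autophagy genes whose breeds did not overlap. WIPI1, GABARAP and PARK2 were higher in Wagyu and BECN1, ATG10, MAP1LC3B, SQSTM1 and BNIP3 lower, and no adjusted p was below 0.268.

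Within the Chinese Red Steppes, RC6 differed from RC4 and RC5 more than the breeds did for several genes. Relative to the mean of RC4 and RC5, GABARAPL1 was 2.15 times as high in RC6, MAP1LC3A 2.03 times, PINK1 1.73 times and BNIP3 1.66 times. ATG4A was at 0.559 times, NBR1 at 0.585 times and ATG4D at 0.640 times. RC6 was the highest of the 6 libraries in 9 of the 41 genes (22.0%) and the lowest in 12 (29.3%), beside 25.0% and 23.7% of all genes tested. The median of the 41 genes in RC6 relative to RC4 and RC5 was -0.02 on the log2 scale, compared with 0.03 over all genes. RC6 was highest in 8 of 9 slow-fibre genes, with the summed levels given above, and in 7 of 9 nuclear-encoded mitochondrial genes. The mitochondrial genes summed to 4751 FPKM in RC6 and to 3680 to 4090 FPKM in the other 5 libraries. Of their 9 breed estimates 8 were below 0, beside 4628 of 9990 over all genes tested. The part of fibre type or mitochondrial content in these values was not tested.

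**Figure D5:**
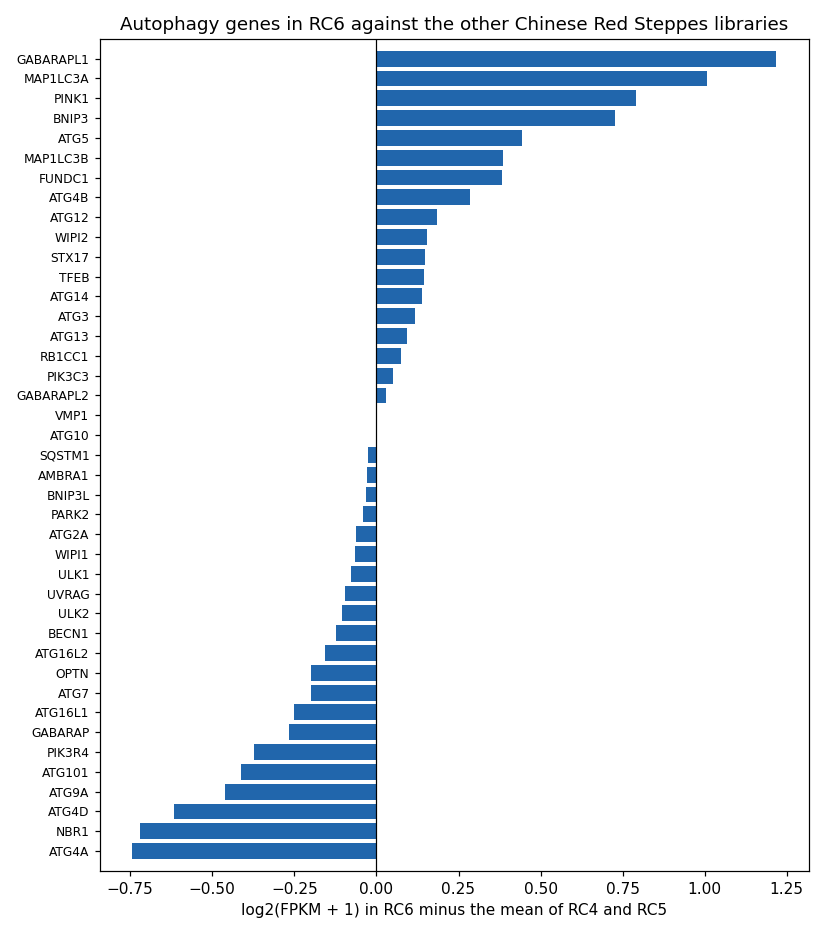
Log2(FPKM + 1) in RC6 minus the mean of that value in RC4 and RC5, as bars, for the 41 tested autophagy genes. GABARAPL1, MAP1LC3A, PINK1 and BNIP3 lie at the upper end and ATG4A, NBR1 and ATG4D at the lower end, around a median of -0.02.

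Leaving RC6 out changed the separation of the breeds for a few genes. With 3 Wagyu and 2 Chinese Red Steppes libraries, 10 of the 41 genes (24.4%) did not overlap, beside 31.0% of all genes tested. The additions were MAP1LC3A, higher in Wagyu (background 17.5%), and ATG9A, lower in Wagyu (background 13.5%). No autophagy gene passed limma without RC6, where 0 of 9932 genes passed in all and 12.6% had an unadjusted p below 0.05. The summed levels of the other marker lists overlapped between the breeds for macrophages (9.79 to 30.8 FPKM), fibroblasts (65.0 to 179 FPKM) and endothelial cells (72.2 to 139 FPKM). In that order 6 of 7, 6 of 6 and 5 of 6 estimates lay above 0, beside 5362 of 9990 over all genes. Their medians were 0.17, 0.41 and 0.29, beside 0.03 over all genes. Without RC6 the medians were 0.06, 0.08 and 0.37, beside 0.04. The part of these cell types in the autophagy values was not tested. The 9 fat-cell genes summed to 57.5, 57.7 and 64.5 FPKM in Wagyu and to 71.4, 71.8 and 70.2 FPKM in Chinese Red Steppes. That sum was lower in Wagyu, but of the 5 fat-cell genes tested 2 had estimates above 0 and 3 below it. Of the autophagy genes whose breeds did not overlap over all 6 libraries, BECN1, ATG10, MAP1LC3B, SQSTM1 and BNIP3 were lower in Wagyu. WIPI1, GABARAP and PARK2 were higher. Most of the fat-cell sum came from PLIN4, a lipid droplet protein that muscle fibres also make, at 35.1 to 59.4 FPKM. The fat-cell hormone ADIPOQ was at 0.0783 to 1.59 FPKM. CIDEC, a fat-cell lipid droplet protein, was higher in every Wagyu library, but WC616 (1.12 FPKM) and RC5 (1.07 FPKM) were nearly level. CIDEC was below the filter, so limma did not test it. LEP, the gene of leptin, was at 0 in 4 of the 6 libraries. Among the 8 skeletal muscle genes, ACTA1 was also lower in every Wagyu library and DES was higher, as given above. Of the 8 estimates, 5 lay above 0 and 3 below it. The part of fat cells or of muscle fibres in those values was not tested. Red blood cell genes stood apart in RC5, where they summed to 41.2 FPKM, 39.6 FPKM of it from HBB, beside at most 0.954 FPKM in the other libraries.

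Several of the genes lie over another gene in the RefSeq annotation, and strand was not stated for the counting. Protein-coding partners lie at WIPI1 (ARSG), BECN1 (CNTD1), SQSTM1 (MRNIP, MGAT4B and an unnamed gene), ATG10 (RPS23), GABARAPL2 (ADAT1) and ATG4D (KRI1). The same holds for STX17 (ERP44), ATG2B (GSKIP), ATG9B (NOS3), and for AMBRA1 and ATG101 (an unnamed gene each). Only noncoding RNA genes or pseudogenes lie at TFEB, PARK2, ATG5, ATG7, ATG16L1, UVRAG, PIK3C3 and ATG4C. These overlaps are of whole gene spans, and whether exons are shared was not examined. Where exons are shared, reads of a partner gene could have been counted to the autophagy gene. The LC3 and GABARAP genes are paralogs of one another, so reads shared among them could have been split.

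The genes around the autophagy core gave a similar picture. No gene passed limma among 28 tested genes of mTORC1 and AMPK control, which set the start of autophagy, 9 transcription factors, 8 beclin partners and lipid phosphatases, 13 genes of fusion with the lysosome, 16 other cargo receptors and 38 lysosome genes. Their median log2 fold changes were 0.02, 0.10, 0.07, 0.01, 0.11 and 0.03 in that order, beside 0.03 for all genes tested. In the same order 15 of 28, 6 of 9, 5 of 8, 7 of 13, 12 of 16 and 21 of 38 estimates were above 0. Over all genes tested it was 5362 of 9990.

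FAM134B, a receptor for autophagy of the endoplasmic reticulum, had the largest estimate of these lists. It was at 26.9, 36.2 and 49.1 FPKM in Wagyu and at 8.08, 22.6 and 16.1 FPKM in Chinese Red Steppes. All Wagyu libraries were higher, and the log2 fold change was 1.28 with a standard error of 0.36 (adjusted p = 0.232 by limma). DESeq2 gave FAM134B an adjusted p of 0.0305, the lowest of 0.0305 to 0.557 over the alternatives. MTMR3, a phosphatase that removes phosphatidylinositol 3-phosphate, was at 23.2, 27.8 and 24.9 FPKM in Wagyu and at 18.0, 15.9 and 14.2 FPKM in Chinese Red Steppes. Its breeds did not overlap, and the log2 fold change was 0.63 with a standard error of 0.15 (adjusted p = 0.190 by limma). DESeq2 gave MTMR3 an adjusted p of 0.0439, the lowest of 0.0439 to 0.511 over the alternatives. FAM134B and MTMR3 were the only genes of the 6 lists past the threshold by DESeq2, which called 1.3% of all genes as higher in Wagyu.

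Among the 38 lysosome genes the breeds did not overlap in 7, with 4 higher and 3 lower in Wagyu, and among the 28 mTORC1 and AMPK genes in 3, with 2 higher and 1 lower, against the background of 11.4% higher and 9.16% lower. The genes with the smallest limma p in these lists follow. LAMTOR3, a subunit of the Ragulator that holds mTORC1 at the lysosome, was at 10.9, 10.4 and 9.99 FPKM in Wagyu and at 13.7, 17.7 and 16.7 FPKM in Chinese Red Steppes (log2 fold change -0.57, adjusted p = 0.202 by limma). LAMP2, a lysosome membrane protein needed for fusion, was at 18.5, 17.7 and 19.3 FPKM in Wagyu and at 21.8, 27.0 and 31.7 FPKM in Chinese Red Steppes (log2 fold change -0.50, adjusted p = 0.276 by limma). MTOR, the kinase that holds autophagy back when nutrients are plentiful, was at 5.41, 5.63 and 6.10 FPKM in Wagyu and at 5.02, 4.28 and 3.24 FPKM in Chinese Red Steppes. The MTOR breeds did not overlap either, with a log2 fold change of 0.39 (adjusted p = 0.361 by limma). TSC1, a brake on mTORC1, was at 5.23 to 6.56 FPKM in Wagyu and at 4.80, 4.27 and 1.21 FPKM in Chinese Red Steppes, with RC6 far below the rest. FNIP2, which joins the AMPK pathway to mTORC1, had a log2 fold change of 0.71 (adjusted p = 0.346 by limma), with overlapping breeds and WC921 highest at 6.46 FPKM. NPC1, a cholesterol exporter of the lysosome, had a log2 fold change of 0.62 (adjusted p = 0.328 by limma), also with overlapping breeds. ATP6V1E1 and ATP6V1H, subunits of the proton pump that acidifies the lysosome, had estimates of opposite sign, 0.32 (adjusted p = 0.336 by limma) and -0.32 (adjusted p = 0.381), and neither overlapped between the breeds. Among the other cargo receptors, WDFY3, a scaffold for the clearance of protein aggregates, had a log2 fold change of 0.66 (adjusted p = 0.334 by limma), with overlapping breeds.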

How the data were processed

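Longissimus dorsi RNA of 3 Wagyu and 3 Chinese Red Steppes cattle was sequenced as paired-end poly(A) libraries. The authors deposited FPKM values for all genes, made against the UMD3.1 build. The methods name TopHat and the submitters' processing notes HISAT2, and which made the values was not settled. The authors also deposited counts for 205 genes, none an autophagy gene; columns of their own comparisons were not used. With library totals derived from those deposited counts, reads were recovered from the FPKM values by the shortest gene length that gave whole reads. All 16770 genes above 0 gave whole reads. Of the 205 genes with deposited counts, 203 were recovered equal to them, but the library totals came from the same counts. Genes with a mean of at least 1 FPKM (9990) were tested with limma 3.58.1 in R 4.3.3 on log2(FPKM + 1), two-sided, with Benjamini-Hochberg adjustment at 0.05. A log2 fold change on this scale understates the change of low genes. edgeR 4.0.16 and DESeq2 1.42.0 on the recovered reads, other pseudocounts, filters and scalings, and leaving out each library were alternatives. The main limma fit and the edgeR and DESeq2 fits on all 6 libraries were tested on simulated data. The other settings were not.

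The gene-name rule and the lists use no measured value, but both were chosen with earlier results of these data known. Values in every library are given for genes whose breeds did not overlap, the 8 with the smallest limma p, the 10 with the highest mean, the ATG8 family and the mitophagy genes, and for up to 4 genes with the smallest limma p in each wider list, some by their fold change alone. Gene overlaps came from RefSeq (ARS-UCD2.0), whose build differs from that of the files.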

Additional observations from a re-analysis of the deposited data

How the results depend on the processing

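No autophagy gene passed the threshold with any of these: a pseudocount of 0.1, a mean of at least 5 FPKM, no filter, quantile or median-ratio scaling, edgeR or DESeq2, or each library left out in turn (0 to 0 genes). Of the settings chosen after seeing the data, edgeR without RC6 called 0 and DESeq2 without RC6 called 1, MAP1LC3A. Of 604 gene values under alternatives, 603 stayed on the same side of the threshold. The sign was kept in all alternatives by 26 of the 41 genes and changed in at least 1 for 15. The median log2 fold change of the tested autophagy genes, 0.01, ran from -0.04 to 0.09. Over all genes, the 2 calls became 1 with a pseudocount of 0.1, 0 with a mean of at least 5 FPKM, 0 with no filter, 3 with quantile scaling, 8 with edgeR and 239 with DESeq2, 0 to 3 when 1 library was left out, and 14 with edgeR and 249 with DESeq2 without RC6. Genes at an unadjusted p below 0.05 split into 863 higher and 586 lower in the main analysis, 688 and 749 after quantile scaling, and 751 and 705 after median-ratio scaling. No paired analysis was possible because the labels give the breeds no shared replicate numbers. With 3 animals per breed, the middle width of the 95% intervals of the 41 genes was 0.84 on the log2 scale.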
